A study of Homo sapiens with 9 samples.

Results

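The receptors for interleukins and colony-stimulating factors were examined in RNA-seq libraries of MOLM13, an established acute myeloid leukemia (AML) cell line with a KMT2A fusion and an internal tandem duplication of FLT3. Members were taken by symbol: protein-coding genes with no hyphen in the symbol, whose symbol starts with IL, a number and R, together with CSF1R, CSF2RA, CSF2RB, CSF3R and IL6ST. This gave 47 of 57773 genes. The symbol pattern also took IL1RN and IL36RN, which encode secreted receptor antagonists and not receptors. The 9 libraries fell into groups of 3 biological replicates. In RBM5 KO, RBM5 was targeted with the guide RBM5-sg1, by the study's methods in Cas9-expressing cells. In RBM5 OE, RBM5 was expressed from the lentiviral RBM5-P2A-Venus vector. CTRL carried a non-targeting sgRNA (sgNT). All groups were the same cell line in the same culture medium. RBM5 KO rests on 1 guide, and whether its cells were a mixed population or a clone is not given in the sources used here. No library with an empty expression vector was used here, so the vector and the RBM5 dose of RBM5 OE cannot be told apart.

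Most of these genes encode type I or type II cytokine receptors, which lack a kinase of their own. A ligand-specific chain binds the cytokine and is joined by a shared chain, such as the common beta chain CSF2RB, the common gamma chain IL2RG, gp130 (IL6ST) or IL12RB1, and Janus kinases bound to the chains then phosphorylate STAT proteins. The IL-1 and IL-17 receptor families signal through adaptor proteins in place of Janus kinases, and CSF1R is a receptor tyrosine kinase. In AML, IL3RA (CD123) is a well-known surface marker of leukemic blasts, and G-CSF, GM-CSF and IL-3 are growth factors of myeloid progenitors.

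The libraries held 25522952 to 27871988 counts each. RBM5 itself lay between 70.6 and 78.8 CPM (counts scaled to library size, with TMM factors) in RBM5 KO, between 380.2 and 415 CPM in RBM5 OE and between 114 and 122 CPM in CTRL, so the RBM5 mRNA was lowered and not lost in RBM5 KO. The log2 fold change of RBM5 against CTRL was −0.66 in RBM5 KO (standard error 0.084) and 1.78 in RBM5 OE (standard error 0.068). Vector-derived RBM5 reads were not counted apart from those of the cells' own gene. All 9 myeloid markers had a mean of at least 1 TPM (transcript abundance scaled by length and library). Their summed level was 2987 to 3352 TPM in RBM5 KO, 1808 to 1870 TPM in RBM5 OE and 2378 to 2519 TPM in CTRL. The groups did not overlap in this sum. The widest difference was in LYZ, with means of 1977 TPM in RBM5 KO, 491 TPM in RBM5 OE and 1171 TPM in CTRL. CD33, CEBPA and MPO also had their lowest mean in RBM5 OE, and SPI1, PTPRC, MEIS1, HOXA9 and FLT3 their highest. The part of these levels in the receptor values was not tested. Of the markers of other cells, 1 of 5 for T cells (CD3D), 3 of 5 for NK cells (NKG7, NCAM1 and GNLY), 2 of 6 for eosinophils, basophils and mast cells (PRG2 and EPX) and 2 of 4 for epithelium and fibroblasts (KRT18 and COL1A1) reached that level. Of the B cell, megakaryocyte and erythroid markers, 0 of 4 each did. The defining markers KLRD1, CPA3, HBB, PF4, PPBP, EPCAM and COL3A1 had 0 counts in all libraries. The summed eosinophil, basophil and mast cell list was 429 to 567 TPM in RBM5 KO, 158 to 168 TPM in RBM5 OE and 92.6 to 160 TPM in CTRL, nearly all of it PRG2, and its part was not tested either. The corresponding receptor chain, IL5RA, had 2 counts over all 9 libraries.

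CTRL replicate 3 and RBM5 KO replicate 1 stood apart from the other replicates of their groups, with a mean chi-square per gene of 35.2 and 41.2 between RBM5 KO replicate 1 and the others, against 10.1 between RBM5 KO replicates 2 and 3. For CTRL replicate 3 it was 16.9 and 22.9, against 9.21 between CTRL replicates 1 and 2 (counting noise alone gives about 1). Of the 30 members tested in RBM5 KO and CTRL, 17 (56.7%) had their lowest CPM of the group in both of these libraries, against 19.8% of all 14198 genes tested, and 2 (IL6R and IL31RA; 6.67%) had their highest in both, against 21.3%. The median log2 ratio of the members to the mean of the other replicates was −0.14 in CTRL replicate 3 and −0.42 in RBM5 KO replicate 1. IL2RB lay farthest below the other replicates in both libraries, and IL2RA next farthest in RBM5 KO replicate 1. IL2RB had 3, 25 and 33 counts in RBM5 KO and 43, 32 and 7 counts in CTRL. IL2RA had 3, 13 and 26 counts in RBM5 KO and 48, 43 and 23 counts in CTRL. Where leaving them out ended a call or moved a called value by over 1.5 times, the value without them is given.

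**Figure D1:**
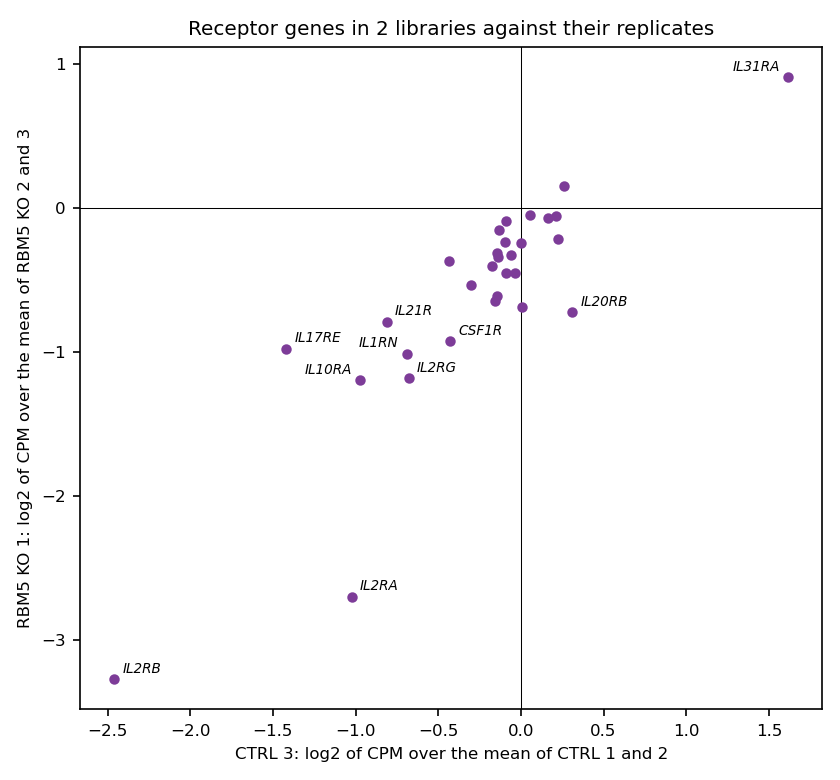
Receptor genes in the libraries that stand apart. Each point is 1 of the 30 members tested in RBM5 KO and CTRL; the x axis is the log2 ratio of its CPM in CTRL replicate 3 to the mean of CTRL replicates 1 and 2, and the y axis is the log2 ratio of its CPM in RBM5 KO replicate 1 to the mean of RBM5 KO replicates 2 and 3. Of the 30 points, 21 lie below 0 on both axes, and IL31RA lies farthest above 0 on both.

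The first question was which receptors these cells express. With a mean of at least 1 TPM in at least 1 group taken as expressed, 26 of the 47 members were expressed and 16 were low. The other 5 (IL13RA2, IL1RAPL2, IL1RL2, IL20RA and IL36RN) had 0 counts in every library, which allows up to 3 counts per library, or 0.108 to 0.118 CPM before TMM scaling (counting error only). Of the 16 low members, 6 (IL2RA, IL2RB, IL17RB, IL20RB, IL22RA2 and IL23R) had 58 to 259 counts over the 9 libraries, and the other 10 (IL1R1, IL1R2, IL1RAPL1, IL1RL1, IL5RA, IL17RD, IL17REL, IL18R1, IL18RAP and IL22RA1) had 1 to 11. Among the expressed members, 1 lay above 100 TPM in CTRL, 12 between 10 and 100 TPM, 12 between 1 and 10 TPM, and IL31RA below 1 TPM.

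By TPM, the highest member was CSF3R, the G-CSF receptor, at 193 ± 41.6 TPM in RBM5 KO, 189 ± 6.19 TPM in RBM5 OE and 187 ± 4.27 TPM in CTRL (SD, n = 3 each). In CTRL it was followed by IL3RA at 69.6 ± 10.4 TPM, IL17RA at 64.1 ± 1.99 TPM, IL10RB at 43.2 ± 0.677 TPM, CSF2RA at 40.1 ± 6.23 TPM and IL6R at 40.0 ± 5.45 TPM. CSF3R lay above every other member in each library. IL3RA and IL17RA overlapped in CTRL, as did CSF2RA and IL6R. For IL6ST the TPM values did not follow the counts: its TPM was 24.5 in RBM5 OE replicate 1 and 1.19 to 4.71 in the other 8 libraries, while all its CPM values lay between 9.53 and 15.3. The ratio of CPM to TPM, which moves with the length of the transcripts RSEM assigned reads to, varied by 14.5 times across libraries for IL6ST, 3.55 times for IL9R and 2.59 times for IL10RA, so these 3 members are described by CPM.

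**Figure D2:**
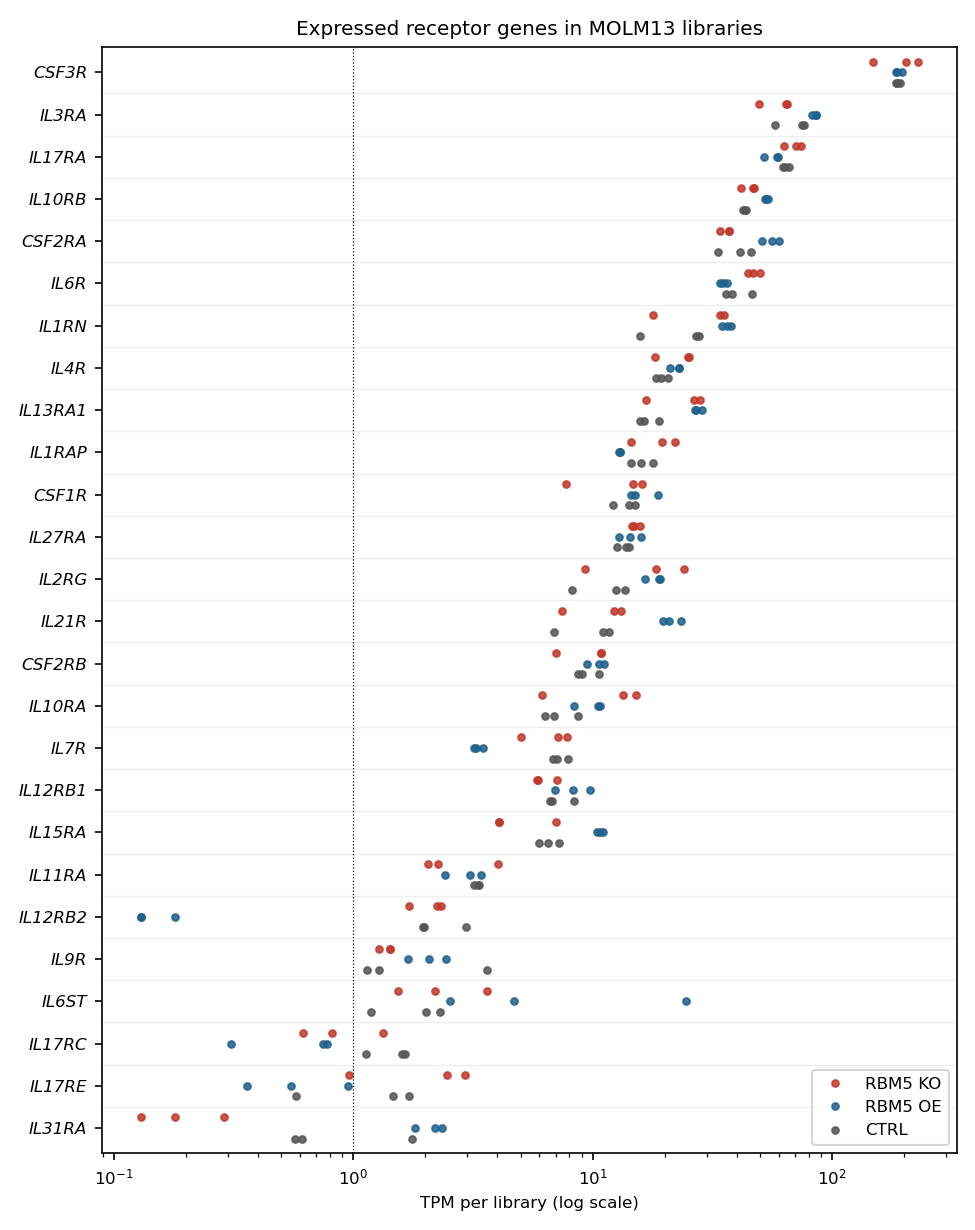
Levels of the 26 expressed members. Each point is 1 library, with TPM on a log scale on the x axis, RBM5 KO above RBM5 OE above CTRL within each gene, and the dotted line at 1 TPM. CSF3R lies above all others, the RBM5 OE libraries of IL12RB2 lie below the dotted line at 0.13 to 0.18 TPM, and 1 RBM5 OE library of IL6ST stands out at 24.5 TPM.

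The families were unequally represented. All 5 members of the branch of gp130 and its gp130-like relative IL31RA were expressed, as were both CSF1R and CSF3R, 3 of 4 members of the common beta chain branch, 7 of 10 of the common gamma and IL-4/IL-13 branch, 2 of 3 IL-12 and IL-23 chains, 2 of 6 of the IL-10 branch and 3 of 6 IL-17 receptors. Of the 9 receptors of the IL-1 and IL-18 branch, IL1RAP alone was expressed. The genes IL1R1, IL1R2, IL1RL1, IL1RL2 and IL18R1, which encode binding chains, and IL18RAP, the accessory chain of the IL-18 receptor, lie together on chromosome 2 of GRCh37 between 102608422 and 103069025, and the 6 genes had 0 to 11 counts each over all libraries.

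In RBM5 KO against CTRL, 0 of 30 tested members passed an adjusted p of 0.05 (edgeR's quasi-likelihood test, Benjamini-Hochberg over all genes), where 2.54% of the 14198 genes tested did (0 members higher, against 0.824% of all genes, and 0 lower, against 1.72%). DESeq2 called 2 members and 5.63% of all genes, and limma-voom 0 members and 1.75% of all genes. At an unadjusted p under 0.05, 5 members passed (IL31RA, IL13RA1, IL10RA, IL2RA and IL6ST), against 16.8% of all genes. The groups did not overlap for 6 members, or 20% of those tested, against 22.7% of all genes. The median log2 fold change of the members was 0.04, against 0.01 for all genes. The count depended on RBM5 KO replicate 1, as did that of all genes: without it 4 of 31 members and 7.73% of all genes were called. The 4 were IL10RA (log2 fold change 1.24, edgeR adjusted p = 0.0109), IL13RA1 (0.70, edgeR adjusted p = 0.00238), IL2RG (0.81, edgeR adjusted p = 0.038) and IL31RA (−2.62, edgeR adjusted p = 0.0307). Without RBM5 KO replicate 1 and CTRL replicate 3 these 4 and IL2RA (−1.31, edgeR adjusted p = 0.044) were called, where 13.4% of all genes were. Both libraries were left out because they stood apart in these data. Each of these members was lowest or highest of its group in both, so leaving them out narrowed its spread.

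In RBM5 OE against CTRL, 15 of 31 tested members were called, 11 higher and 4 lower, in a comparison in which 40.1% of all 14352 tested genes were called, 19.8% higher and 20.3% lower. The members' share of 48.4% was near this background. IL23R passed the filter on low counts through RBM5 OE alone, and without it 14 of 30 members (46.7%) were called. The groups did not overlap for 20 members, against 51.7% of all genes. The absolute log2 fold change was over 1 for 5 members (IL12RB2, IL23R, IL31RA, IL7R and IL21R), and the share of all genes past that size was not counted. The median log2 fold change was 0.12 over the members and 0.01 over all genes. In the direct comparison of RBM5 OE against RBM5 KO, 14 of 31 members were called, 7 higher and 7 lower, against 39.9% of all 14734 genes, 19.6% higher and 20.3% lower. Without IL23R, which again passed through RBM5 OE alone, 13 of 30 (43.3%) were called. RBM5 OE and RBM5 KO did not overlap for 17 members, against 52.6% of all genes. Without RBM5 KO replicate 1, IL4R (−0.21), CSF3R (−0.18) and IL10RA (−1.02) also passed as lower in RBM5 OE than in RBM5 KO (edgeR adjusted p = 0.00167 to 0.0499). IL22RA2 (−2.24) passed there too, but it was not tested with all libraries. It had 4, 18 and 11 counts in RBM5 KO and 5, 2 and 2 counts in RBM5 OE. Only RBM5 KO replicates 2 and 3 reached the filter on low counts, so its test carries no weight of its own. Without RBM5 KO replicate 3, IL2RA passed as higher (2.07, edgeR adjusted p = 0.0155). In RBM5 OE against CTRL, IL20RB passed as lower without CTRL replicate 1 (−1.20, edgeR adjusted p = 0.0462). The 3 comparisons share libraries and are not independent of each other.

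**Figure D3:**
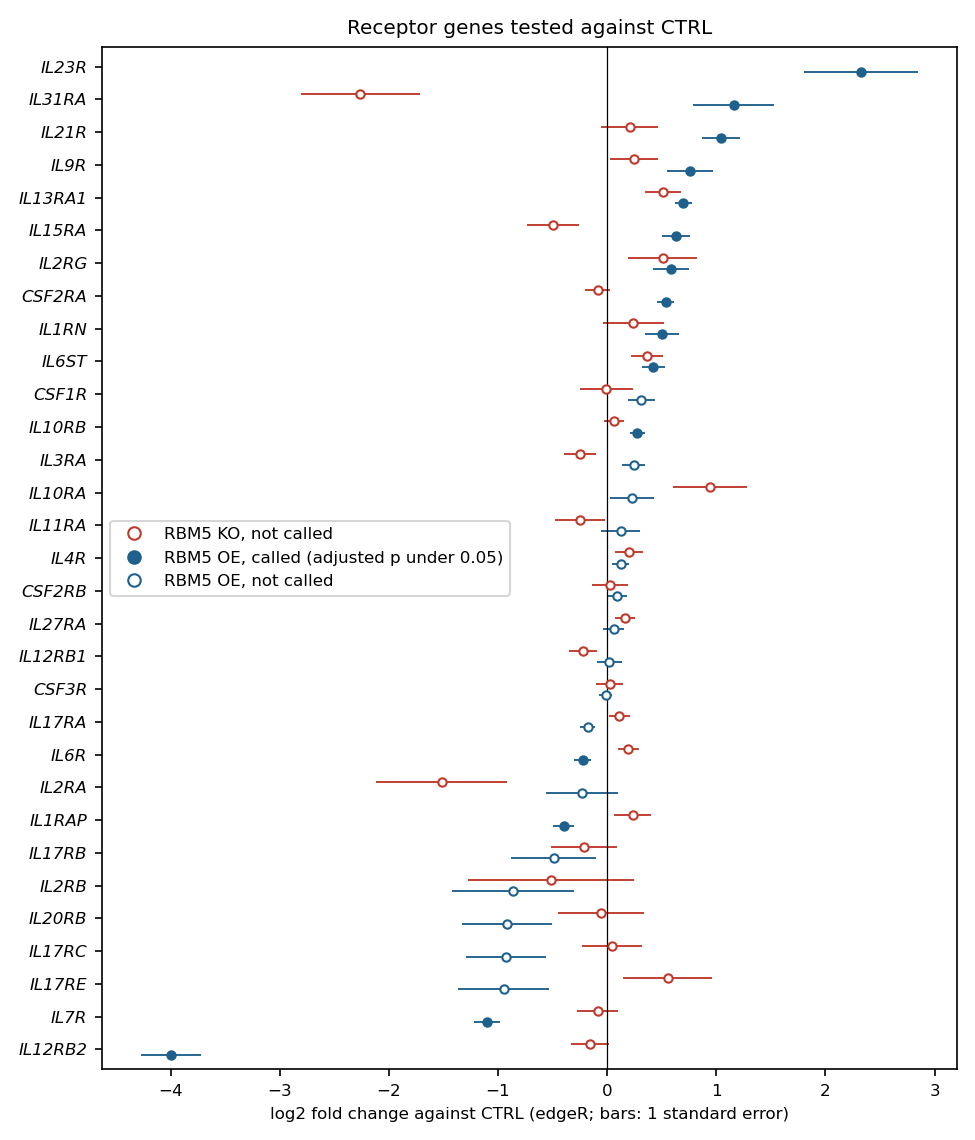
Changes of the tested members against CTRL. The x axis is the log2 fold change with bars of 1 standard error, in red for RBM5 KO and in blue for RBM5 OE, and filled points passed an adjusted p of 0.05. None of the 30 RBM5 KO points is filled, 15 of the 31 RBM5 OE points are, and IL12RB2 at −3.997 lies farthest from 0; IL23R was tested in RBM5 OE only.

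The receptors of IL-12 and IL-23 held the widest change. IL12RB2, the chain that completes the IL-12 receptor (chromosome 1 of GRCh37, 67773047 to 67864407, plus strand), had 128, 145 and 178 counts in RBM5 KO, 7, 9 and 15 counts in RBM5 OE and 157, 167 and 151 counts in CTRL. Scaled to library size these were 4.69, 5.34 and 6.5 CPM in RBM5 KO, 0.256, 0.317 and 0.567 CPM in RBM5 OE and 6.14, 6.55 and 5.75 CPM in CTRL, so each RBM5 OE library lay below every other library. The RBM5 KO and CTRL libraries overlapped. IL12RB2 fell in RBM5 OE to 0.0626 times its CTRL level (log2 fold change −3.997, standard error 0.28, edgeR adjusted p = 2.62e-06). In that comparison 3 CTRL libraries and 1 RBM5 OE library reached the filter on low counts, so the gene entered it mainly through CTRL. It was also lower in RBM5 OE than in RBM5 KO (log2 fold change −3.85, edgeR adjusted p = 2.33e-06). In RBM5 KO its log2 fold change was −0.16 (edgeR adjusted p = 0.709). Both calls held in all 18 alternatives (against CTRL, leaving out both libraries that stood apart repeats leaving out CTRL replicate 3).

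IL23R, the chain that completes the IL-23 receptor, lies 47.4 kb upstream of IL12RB2 on the same strand (chromosome 1 of GRCh37, 67604590 to 67725662, plus strand). At very low depth it had 6, 2 and 1 counts in RBM5 KO, 18, 24 and 23 counts in RBM5 OE and 1, 5 and 6 counts in CTRL. All RBM5 OE libraries were above all others, with a log2 fold change of 2.33 against CTRL (standard error 0.52) and 2.80 against RBM5 KO. In both comparisons IL23R passed the filter on low counts through RBM5 OE alone, the group where it was high, so it had to differ and its test carries no weight of its own. Its mean stayed at 0.737 ± 0.121 TPM in RBM5 OE, against 0.143 ± 0.0981 TPM in CTRL. The counts were made without strand, and C1orf141 lies on the opposite strand within the annotated span of IL23R, so reads of the 2 genes cannot be told apart where they overlap. IL12RB1, the chain shared by both receptors, had 9.45, 10.4 and 9.2 CPM in RBM5 KO, 12.01, 10.5 and 11.7 CPM in RBM5 OE and 10.6, 10.9 and 12.5 CPM in CTRL. Its log2 fold change was −0.22 in RBM5 KO (edgeR adjusted p = 0.422) and 0.02 in RBM5 OE (edgeR adjusted p = 0.901).

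The ligand subunits of these receptors were measured in the same libraries. IL12A, the p35 subunit of IL-12 and also of IL-35, had 30, 36 and 39 counts in RBM5 KO, 6, 4 and 6 counts in RBM5 OE and 27, 24 and 22 counts in CTRL. All RBM5 OE libraries lay below all others, at a log2 fold change of −2.24 against CTRL (standard error 0.42); in that comparison it passed the filter on low counts through CTRL alone, so its test carries no weight of its own. IL23A, the p19 subunit of IL-23, had 83, 90 and 101 counts in RBM5 KO, 613, 542 and 536 counts in RBM5 OE and 145, 133 and 102 counts in CTRL. It was higher in RBM5 OE (log2 fold change 2.07, standard error 0.14, edgeR adjusted p = 2.63e-06). EBI3, which pairs with p35 in IL-35 and with p28 in IL-27 and was singled out after its values were seen, had 3, 26 and 21 counts in RBM5 KO, 25, 23 and 20 counts in RBM5 OE and 3, 10 and 3 counts in CTRL. The RBM5 OE counts of EBI3 were above those of CTRL and overlapped those of RBM5 KO, and against CTRL the gene passed the filter through RBM5 OE alone (log2 fold change 1.98, standard error 0.50). IL12B, the p40 subunit that IL-12 and IL-23 both need, was looked up after these values were seen and had 21 counts in all 9 libraries together, 12 of them in RBM5 KO.

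**Figure D4:**
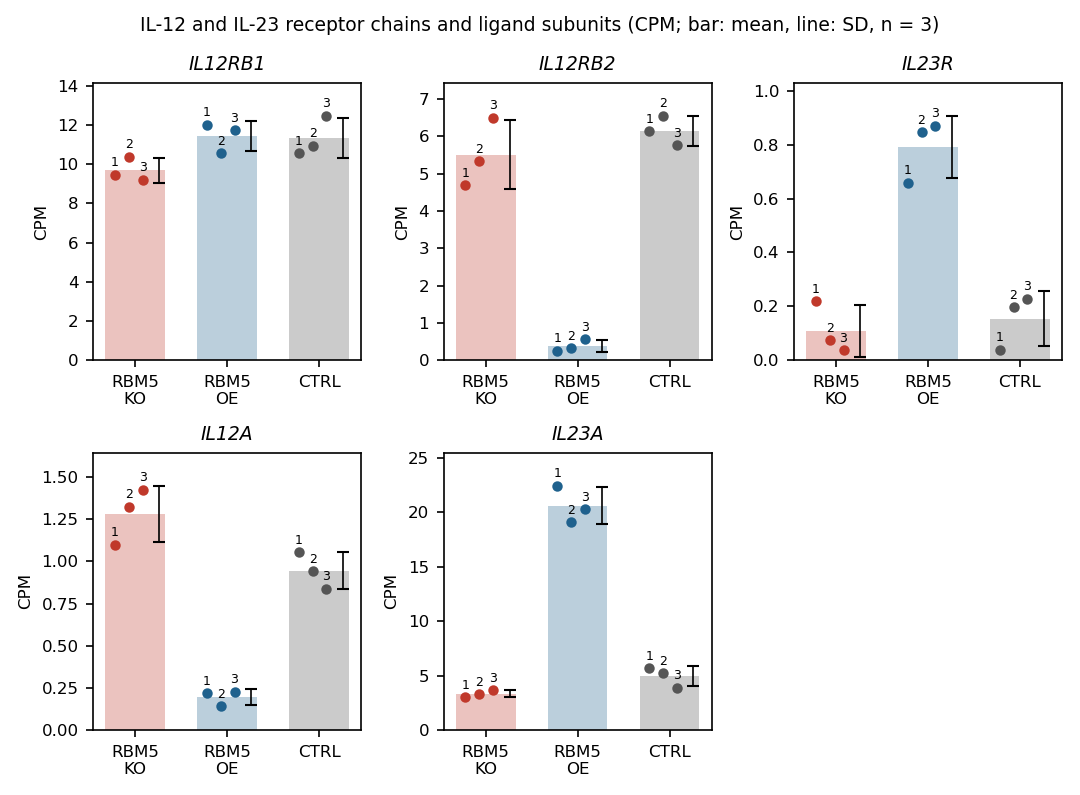
IL-12 and IL-23 receptor chains and ligand subunits. Bars are group means in CPM, lines are SD (n = 3), and points are libraries numbered by replicate. IL12RB2 and IL12A lie lowest in RBM5 OE and IL23R and IL23A highest there, while IL12RB1 lies between 9.20 and 12.5 CPM in all 9 libraries.

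In the common gamma and IL-4/IL-13 branch, 9 of 10 members were tested, and 5 rose and 1 fell in RBM5 OE, where 19.8% of all genes rose and 20.3% fell. IL7R, the alpha chain of the IL-7 receptor (chromosome 5 of GRCh37, 35852797 to 35879705, plus strand), was the one that fell, with 13.6, 21.6 and 22.1 CPM in RBM5 KO, 8.28, 10.7 and 9.19 CPM in RBM5 OE and 18.2, 22.4 and 20.3 CPM in CTRL. The RBM5 OE libraries lay below all others (log2 fold change −1.10, standard error 0.12, edgeR adjusted p = 5.08e-05). Against RBM5 KO the log2 fold change of IL7R was −1.02 (edgeR adjusted p = 0.000866). IL21R (chromosome 16 of GRCh37, 27413495 to 27463363, plus strand) had 19.5, 32.6 and 34.7 CPM in RBM5 KO, 50.9, 47.8 and 55.8 CPM in RBM5 OE and 27.4, 31.2 and 16.7 CPM in CTRL. It rose in RBM5 OE, again without overlap (log2 fold change 1.05, standard error 0.17, edgeR adjusted p = 0.000664). Set against RBM5 KO, IL21R had a log2 fold change of 0.83 (edgeR adjusted p = 0.0118). IL21R was lowest of its group in CTRL replicate 3 and RBM5 KO replicate 1, and its call held without them.

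IL15RA, which binds IL-15 and presents it to neighbouring cells (chromosome 10 of GRCh37, 5985602 to 6020150, minus strand), had 4.29, 3.13 and 5.99 CPM in RBM5 KO, 10.2, 9.48 and 9.49 CPM in RBM5 OE and 5.79, 7.1 and 6.06 CPM in CTRL. IL15RA rose in RBM5 OE (log2 fold change 0.63, standard error 0.13, edgeR adjusted p = 0.00248). It was also higher in RBM5 OE than in RBM5 KO (log2 fold change 1.12, edgeR adjusted p = 0.00105). In RBM5 KO against CTRL its log2 fold change was −0.50 (edgeR adjusted p = 0.338). IL13RA1, which pairs with IL4R to bind IL-13, had 54.03, 87.7 and 81.3 CPM in RBM5 KO, 89.03, 80.97 and 82.5 CPM in RBM5 OE and 56.3, 51.8 and 48.5 CPM in CTRL. All RBM5 OE libraries lay above CTRL (log2 fold change 0.70, standard error 0.08, edgeR adjusted p = 5.65e-05). RBM5 KO replicates 2 and 3 lay as high as RBM5 OE and replicate 1 within the CTRL range. In RBM5 KO the log2 fold change was 0.51 (edgeR adjusted p = 0.169; DESeq2 adjusted p = 0.0439). RBM5 OE did not pass against RBM5 KO (edgeR adjusted p = 0.352).

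IL2RG, the common gamma chain itself, had 10.4, 26.2 and 20.8 CPM in RBM5 KO, 18.7, 20.1 and 21.4 CPM in RBM5 OE and 13.9, 16.8 and 9.6 CPM in CTRL. It rose in RBM5 OE (log2 fold change 0.59, standard error 0.16, edgeR adjusted p = 0.014), a call lost without RBM5 OE replicate 3 (edgeR adjusted p = 0.0548) and with all 9 libraries in 1 fit (edgeR adjusted p = 0.134). Without CTRL replicate 3, where IL2RG was lowest, the log2 fold change was 0.38 (edgeR adjusted p = 0.00838). IL9R, the IL-9 receptor in the pseudoautosomal region of chromosomes X and Y, had 2.31, 2.56 and 2.29 CPM in RBM5 KO, 3.89, 2.93 and 3.42 CPM in RBM5 OE and 1.84, 2.05 and 2.18 CPM in CTRL. RBM5 OE was higher (log2 fold change 0.76, standard error 0.21, edgeR adjusted p = 0.0138). Without RBM5 OE replicate 1 its edgeR adjusted p was 0.0693, and on the log2(TPM + 1) scale the limma adjusted p was 0.795. IL4R, the shared alpha chain of the IL-4 and IL-13 receptors, had 46.4, 60.5 and 61.9 CPM in RBM5 KO, 53.3, 52.2 and 53.9 CPM in RBM5 OE and 50.6, 51.5 and 45.2 CPM in CTRL. It did not pass in RBM5 KO (log2 fold change 0.20, edgeR adjusted p = 0.48) or RBM5 OE (0.12, edgeR adjusted p = 0.218).

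The alpha and beta chains of the IL-2 receptor stayed below 1 TPM on average in every group. In RBM5 OE, IL2RA had 39, 34 and 30 counts (log2 fold change −0.23, edgeR adjusted p = 0.614) and IL2RB had 17, 22 and 9 (log2 fold change −0.86, edgeR adjusted p = 0.247). Without CTRL replicate 3, IL2RB passed in RBM5 OE (log2 fold change −1.33, edgeR adjusted p = 0.0155).

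**Figure D5:**
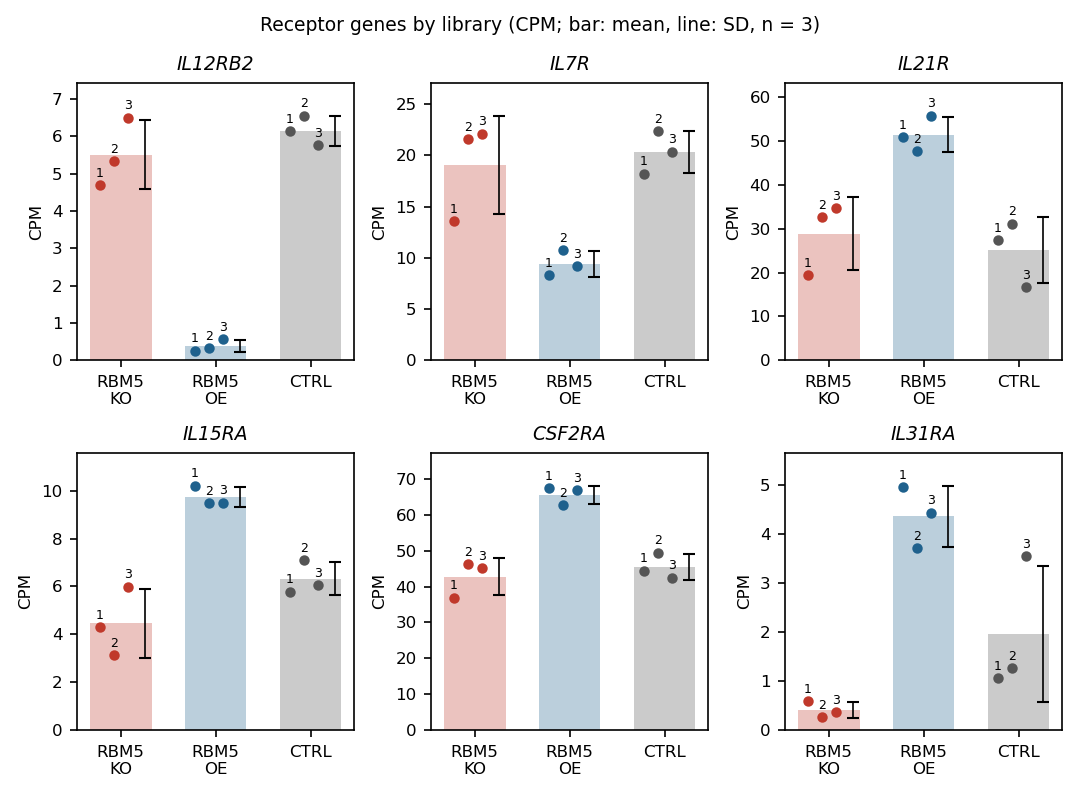
Members with the clearest differences between groups, by library. Bars are group means in CPM, lines are SD (n = 3), and points are libraries numbered by replicate. IL12RB2 and IL7R lie lowest in RBM5 OE, IL21R, IL15RA, CSF2RA and IL31RA highest, and for IL31RA the third CTRL library stands near the RBM5 OE range at 3.54 CPM.

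Of the common beta chain branch, which serves GM-CSF, IL-3 and IL-5, the alpha chains CSF2RA and IL3RA and the shared chain CSF2RB were expressed. CSF2RA and IL3RA lie 26.2 kb apart in the pseudoautosomal region, CSF2RA from 1387693 to 1429274 and IL3RA from 1455509 to 1501582 on chromosome X of GRCh37, and the X and Y entries of each were summed. CSF2RA had 36.9, 46.3 and 45.1 CPM in RBM5 KO, 67.3, 62.7 and 66.8 CPM in RBM5 OE and 44.5, 49.4 and 42.4 CPM in CTRL. It rose in RBM5 OE without overlap (log2 fold change 0.54, standard error 0.08, edgeR adjusted p = 0.000266), and was higher there than in RBM5 KO (log2 fold change 0.62, edgeR adjusted p = 0.00048). These calls held in all 18 alternatives (against CTRL, leaving out both libraries that stood apart repeats leaving out CTRL replicate 3).

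IL3RA, or CD123, had 62.7, 79.3 and 82.8 CPM in RBM5 KO, 103, 106 and 106 CPM in RBM5 OE and 95.02, 100.2 and 72.2 CPM in CTRL. The RBM5 OE libraries lay above all others and the RBM5 KO and CTRL libraries overlapped. Against RBM5 KO the difference passed (log2 fold change 0.49, standard error 0.13, edgeR adjusted p = 0.00968), and against CTRL it did not (log2 fold change 0.24, edgeR adjusted p = 0.0857; without CTRL replicate 2, 0.33 and 0.0369). CSF2RB, the common beta chain, had 29.7, 45.04 and 45.3 CPM in RBM5 KO, 39.1, 42.9 and 43.3 CPM in RBM5 OE and 43.4, 37.9 and 36.8 CPM in CTRL. Its log2 fold change was 0.03 in RBM5 KO (edgeR adjusted p = 0.961) and 0.09 in RBM5 OE (edgeR adjusted p = 0.416).

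CSF3R, on chromosome 1, had 297, 389 and 422 CPM in RBM5 KO, 349.6, 359.9 and 367 CPM in RBM5 OE and 355, 381 and 359 CPM in CTRL. Its log2 fold change was 0.02 in RBM5 KO (edgeR adjusted p = 0.957) and −0.01 in RBM5 OE (edgeR adjusted p = 0.869). Its standard error was 0.13 in RBM5 KO and 0.06 in RBM5 OE. CSF1R, the receptor of M-CSF and IL-34, had 23.6, 46.1 and 43.5 CPM in RBM5 KO, 42.4, 47.1 and 51.4 CPM in RBM5 OE and 37.7, 45.4 and 30.9 CPM in CTRL. It did not pass in RBM5 OE (log2 fold change 0.31, edgeR adjusted p = 0.0638). It did pass without CTRL replicate 2 (0.46, edgeR adjusted p = 0.0112) and by DESeq2 (0.31, adjusted p = 0.0382).

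In the gp130 branch, IL31RA had the largest log2 fold changes. IL31RA, a gp130-like chain that joins OSMR and not gp130 to bind IL-31 (chromosome 5 of GRCh37, 55147185 to 55218682, plus strand), had 16, 7 and 10 counts in RBM5 KO, 135, 105 and 117 counts in RBM5 OE and 27, 32 and 93 counts in CTRL. The 3 groups did not overlap. CTRL replicate 3, at 93 counts, lay nearer to RBM5 OE than to the other CTRL libraries. RBM5 OE exceeded RBM5 KO (log2 fold change 3.42, standard error 0.47, edgeR adjusted p = 0.000191) in all 18 alternatives. Against CTRL, the log2 fold change was −2.26 in RBM5 KO (edgeR adjusted p = 0.0692; DESeq2 adjusted p = 0.00438; all 9 libraries in 1 edgeR fit, adjusted p = 0.0184) and 1.16 in RBM5 OE (edgeR adjusted p = 0.0266). The second call was lost without any 1 of CTRL replicates 1 and 2 and RBM5 OE replicates 1 and 3 (edgeR adjusted p = 0.0674 to 0.106) and on the log2(TPM + 0.1) scale (limma adjusted p = 0.052). Without CTRL replicate 3 the log2 fold change was 1.91 in RBM5 OE and −1.51 in RBM5 KO (edgeR adjusted p = 0.184).

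IL6R, the IL-6 binding chain, had 236, 217 and 206 CPM in RBM5 KO, 161, 161 and 169 CPM in RBM5 OE and 179.8, 181 and 216 CPM in CTRL. It was lower in RBM5 OE than in RBM5 KO (log2 fold change −0.43, standard error 0.09, edgeR adjusted p = 0.00216). Against CTRL it was lower by a narrow margin (log2 fold change −0.22, standard error 0.08, edgeR adjusted p = 0.0387), and this call was lost without any 1 of CTRL replicate 3 and the RBM5 OE libraries (edgeR adjusted p = 0.0643 to 0.133), the value without CTRL replicate 3 being −0.14. It was also lost with library totals alone (0.088), with all 9 libraries in 1 fit (0.0565) and on the log2(TPM + 1) scale (limma adjusted p = 0.225). IL6ST, the shared gp130 chain, lies 12.2 kb from IL31RA on the opposite strand. IL6ST had 11.5, 15.3 and 11.9 CPM in RBM5 KO, 13.5, 14.03 and 12.7 CPM in RBM5 OE and 10.6, 9.53 and 10.1 CPM in CTRL. The gp130 gene rose in RBM5 OE (log2 fold change 0.42, standard error 0.11, edgeR adjusted p = 0.00822). Its values in RBM5 KO also lay above CTRL (log2 fold change 0.36, edgeR adjusted p = 0.25). On the log2(TPM + 1) scale RBM5 OE did not pass (1.52, limma adjusted p = 0.103). IL27RA, which joins gp130 to bind IL-27, had 32.2, 34.00 and 32.6 CPM in RBM5 KO, 27.6, 30.3 and 33.7 CPM in RBM5 OE and 26.9, 31.3 and 30.2 CPM in CTRL. IL11RA, the IL-11 binding chain, had 2.53, 4.1 and 2.81 CPM in RBM5 KO, 4.66, 3.52 and 3.97 CPM in RBM5 OE and 3.56, 4.09 and 3.59 CPM in CTRL. Neither passed in any comparison with all libraries. Without RBM5 KO replicate 2, IL11RA was higher in RBM5 OE than in RBM5 KO (0.60, edgeR adjusted p = 0.0453).

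In the IL-10 branch, IL10RB, the chain shared by the receptors of IL-10, IL-22 and the lambda interferons, had 62.9, 69.01 and 70.8 CPM in RBM5 KO, 78.03, 78.02 and 77.5 CPM in RBM5 OE and 64.9, 68.4 and 60.9 CPM in CTRL. It rose in RBM5 OE by a small amount (log2 fold change 0.27, standard error 0.07, edgeR adjusted p = 0.00806), with the RBM5 OE libraries between 77.5 and 78.0 CPM. Against RBM5 KO the adjusted p was at the threshold (log2 fold change 0.20, edgeR adjusted p = 0.0491), and leaving out any 1 of the 6 libraries of RBM5 OE and RBM5 KO lost the call (0.0551 to 0.134), as did no low-count filter (0.11) and the replicate number as a block (0.0835). The annotation places the readthrough locus IFNAR2-IL10RB over this gene, so part of its reads could be shared.

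IL10RA, the IL-10 binding chain, had 15.9, 37.5 and 35.6 CPM in RBM5 KO, 17.2, 18.4 and 18.5 CPM in RBM5 OE and 17.8, 19.3 and 9.45 CPM in CTRL. RBM5 KO replicates 2 and 3 lay above all other libraries and RBM5 KO replicate 1 within the CTRL range. Its log2 fold change in RBM5 KO was 0.94 (standard error 0.34, edgeR adjusted p = 0.208), and without RBM5 KO replicate 1 and CTRL replicate 3 it was 0.99 (edgeR adjusted p = 8.54e-07). Both libraries were left out because they stood apart in these data, and IL10RA was lowest of its group in both. Leaving them out had to narrow the spread of IL10RA, so the smaller p carries no weight of its own. In RBM5 OE the log2 fold change of IL10RA was 0.23 (edgeR adjusted p = 0.396).

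The IL-1 branch was reduced to its co-receptor and its antagonist. IL1RAP, the co-receptor of the IL-1, IL-33 and IL-36 receptors, had 50.8, 82.3 and 64.7 CPM in RBM5 KO, 43.3, 42.6 and 41.1 CPM in RBM5 OE and 61.7, 58.1 and 48.5 CPM in CTRL. It was lower in RBM5 OE than in CTRL (log2 fold change −0.40, standard error 0.09, edgeR adjusted p = 0.00503) and than in RBM5 KO (log2 fold change −0.64, edgeR adjusted p = 0.00505), without overlap. The call against CTRL was lost with all 9 libraries in 1 fit (edgeR adjusted p = 0.0547) and on the log2(TPM + 1) scale (limma, −0.29, adjusted p = 0.0775). IL1RN, the IL-1 receptor antagonist, had 16.2, 33.3 and 32.03 CPM in RBM5 KO, 32.2, 31.02 and 34.3 CPM in RBM5 OE and 24.99, 27.8 and 16.4 CPM in CTRL. The antagonist gene rose in RBM5 OE (log2 fold change 0.50, standard error 0.15, edgeR adjusted p = 0.021). The lowest libraries were again CTRL replicate 3 and RBM5 KO replicate 1, and the call was lost without RBM5 OE replicate 1 (edgeR adjusted p = 0.0639) or RBM5 OE replicate 3 (0.0727), and with all 9 libraries in 1 fit (0.14). Without CTRL replicate 3 the log2 fold change of IL1RN was 0.30 (edgeR adjusted p = 0.0114).

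Of the IL-17 receptors, none of the 4 tested passed against CTRL by edgeR with all libraries, and 3 of 4 were lower in RBM5 OE than in RBM5 KO, where 20.3% of all genes were. IL17RA, the chain shared by this family, had 443, 534 and 508 CPM in RBM5 KO, 375, 421 and 415 CPM in RBM5 OE and 461, 478 and 439 CPM in CTRL and was lower in RBM5 OE than in RBM5 KO (log2 fold change −0.29, standard error 0.08, edgeR adjusted p = 0.0139). Without RBM5 KO replicate 2 or RBM5 OE replicate 1 its edgeR adjusted p was 0.0513 or 0.0672. IL17RE, which pairs with IL17RA to bind IL-17C, had 57, 120 and 104 counts in RBM5 KO, 50, 29 and 20 counts in RBM5 OE and 81, 70 and 29 counts in CTRL. Its RBM5 OE libraries lay below those of RBM5 KO (log2 fold change −1.51, standard error 0.43, edgeR adjusted p = 0.0157). IL17RC, which pairs with IL17RA to bind IL-17A and IL-17F, starts 0.7 kb after IL17RE on the same strand. It had 34, 41 and 44 counts in RBM5 KO, 16, 14 and 30 counts in RBM5 OE and 31, 42 and 36 counts in CTRL. Here too RBM5 OE was below RBM5 KO (log2 fold change −0.98, standard error 0.34, edgeR adjusted p = 0.0394).

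The IL17RE and IL17RC calls rested on few reads. The IL17RE call was lost without RBM5 KO replicate 2, RBM5 OE replicate 2 or RBM5 OE replicate 3 (edgeR adjusted p = 0.0554 to 0.0672), and the IL17RC call without RBM5 KO replicate 2 or 3 or RBM5 OE replicate 1 or 2 (0.0835 to 0.146). The IL17RC call was also lost with the 6 libraries of RBM5 OE and RBM5 KO alone (edgeR adjusted p = 0.0642) and on the log2(TPM + 1) scale (limma, −0.25, adjusted p = 0.306). Against CTRL, RBM5 OE had a log2 fold change of −0.18 for IL17RA (edgeR adjusted p = 0.0561), −0.95 for IL17RE (edgeR adjusted p = 0.0913) and −0.93 for IL17RC (edgeR adjusted p = 0.0652). Without CTRL replicate 3, IL17RE (−1.29, edgeR adjusted p = 0.00308) and IL17RA (−0.22, edgeR adjusted p = 0.0145) passed. IL17RE also passed without RBM5 OE replicate 1 (−1.39, edgeR adjusted p = 0.0445), and IL17RC passed without RBM5 OE replicate 3 (−1.38, edgeR adjusted p = 0.0218). By other tools IL17RA passed against CTRL with DESeq2 (adjusted p = 0.0283) and limma-voom (adjusted p = 0.0499), and IL17RC with limma-voom (adjusted p = 0.0423) and on the log2(TPM + 1) scale (limma adjusted p = 0.0227). IL17RE passed with no low-count filter (edgeR adjusted p = 0.00812) and with the replicate number as a block (edgeR adjusted p = 0.034).

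Many receptor genes lie next to each other, and neighbours were compared in RBM5 OE. By an annotation of GRCh37, 14 neighbouring pairs lay within 200 kb of each other, and in 7 of them both genes were tested. Both were called in 2 pairs, IL31RA with IL6ST, both higher, and IL23R with IL12RB2, in opposite directions (IL23R passed the filter through RBM5 OE alone). In 3 pairs 1 gene was called, IL15RA beside IL2RA, IL21R beside IL4R and CSF2RA beside IL3RA, and in 2 pairs (IL17RE with IL17RC, and CSF2RB with IL2RB) neither was. Of all genes tested in RBM5 OE against CTRL, neighbours or not, 40.1% were called.

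The start regions of the members were searched for short motifs of factors known in cytokine and myeloid gene control, in windows of 250 bases before to 50 after the start (RefSeq, GRCh38.p14), on both strands. Windows were found for 41 of 47 members, not for IL23R or IL31RA. The PU.1 core GAGGAA, the site of a myeloid master regulator, was in 16 of 41 windows (39%), against 27.6% of 27195 windows of all genes, and in 3 of 4 members lower in RBM5 OE (IL12RB2, IL7R and IL6R) and 3 of the 9 higher with a window. The STAT site TTCNNNGAA was in 3 members (7.32%, against 7.89% of all windows), the AP-1 site TGANTCA in 7 (17.1%, against 7.73%), the C/EBP half-site pair TTGCNNAA in 6 (14.6%, against 10.5%), the interferon-stimulated response element in 1 (2.44%, against 3.65%) and the NF-kB consensus in 9 (22%, against 10.8%). A match is a run of letters and not evidence of binding. Shown are the windows of the members that fell furthest among those with one, IL12RB2 and IL7R, and of CSF2RA and IL15RA, which rose. IL21R, IL9R and IL13RA1 rose further than CSF2RA and IL15RA, also have windows and are not shown. Capitals mark GAGGAA or its complement TTCCTC in the first 3 and TTCNNNGAA in the last.
IL12RB2, GRCh38.p14 chr1:67307114-67307413, plus strand: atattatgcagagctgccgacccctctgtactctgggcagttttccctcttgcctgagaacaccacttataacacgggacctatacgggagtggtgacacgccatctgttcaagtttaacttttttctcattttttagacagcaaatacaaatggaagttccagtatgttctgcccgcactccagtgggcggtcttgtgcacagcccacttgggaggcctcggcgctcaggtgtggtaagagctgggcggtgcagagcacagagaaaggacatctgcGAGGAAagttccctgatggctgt
IL7R, GRCh38.p14 chr5:35856641-35856940, plus strand: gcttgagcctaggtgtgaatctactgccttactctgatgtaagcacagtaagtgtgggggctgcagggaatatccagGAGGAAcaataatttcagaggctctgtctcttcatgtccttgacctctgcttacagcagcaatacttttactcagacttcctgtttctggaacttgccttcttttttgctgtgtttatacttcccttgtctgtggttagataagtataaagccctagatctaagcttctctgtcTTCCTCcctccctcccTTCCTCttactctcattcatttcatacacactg
CSF2RA, GRCh38.p14 chrX:1268564-1268863, plus strand: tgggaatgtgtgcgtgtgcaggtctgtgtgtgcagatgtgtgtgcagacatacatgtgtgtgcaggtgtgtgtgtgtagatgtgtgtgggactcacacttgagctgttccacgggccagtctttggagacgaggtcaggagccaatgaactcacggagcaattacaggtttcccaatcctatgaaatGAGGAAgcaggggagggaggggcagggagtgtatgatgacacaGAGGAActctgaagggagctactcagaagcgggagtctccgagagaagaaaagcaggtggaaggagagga
IL15RA, GRCh38.p14 chr10:5977997-5978296, minus strand: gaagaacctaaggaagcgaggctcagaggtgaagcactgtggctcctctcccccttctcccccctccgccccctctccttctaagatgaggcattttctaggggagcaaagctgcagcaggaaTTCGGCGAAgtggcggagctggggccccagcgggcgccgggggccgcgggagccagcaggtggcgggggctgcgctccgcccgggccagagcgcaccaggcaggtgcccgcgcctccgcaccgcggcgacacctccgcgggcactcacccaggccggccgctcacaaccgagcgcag
Counted from the start (first transcribed base 1, no base 0), the leftmost base of GAGGAA or its complement lies at 28 in IL12RB2, at −63 and −20 in CSF2RA, and at −173, 2 and 18 in IL7R. The STAT site of IL15RA begins at −127.

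Genes that act with these receptors were described from lists. Of 18 related receptors that the symbol rule leaves out, 9 were expressed and 12 tested. Of these, 0 rose and 1 fell in RBM5 KO, 4 rose and 0 fell in RBM5 OE, and 5 were higher and 2 lower in RBM5 OE than in RBM5 KO. Over all genes 0.824% rose and 1.72% fell in RBM5 KO, 19.8% rose and 20.3% fell in RBM5 OE, and 19.6% were higher and 20.3% lower in RBM5 OE than in RBM5 KO. FLT3, the receptor tyrosine kinase mutated in this line, had 284, 345 and 331 CPM in RBM5 KO, 524, 509 and 480 CPM in RBM5 OE and 512, 460.4 and 487 CPM in CTRL. It fell in RBM5 KO (log2 fold change −0.60, standard error 0.10, edgeR adjusted p = 0.0162). In RBM5 OE the rises were of IFNGR2 (log2 fold change 0.34), KIT (1.44), EPOR (0.34) and SIGIRR (0.23). KIT stayed below the limit for expressed genes, at a mean of 0.677 TPM in RBM5 OE and 0.237 TPM in CTRL. The median log2 fold change of the list was 0.20 in RBM5 KO, 0.11 in RBM5 OE and 0.22 between RBM5 OE and RBM5 KO.

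Of 43 ligands of the members, 9 were expressed and 12 tested. None passed in RBM5 KO (edgeR; 1 at an unadjusted p under 0.05), 4 rose and 1 fell in RBM5 OE, and 4 were higher and 1 lower in RBM5 OE than in RBM5 KO. These 5 of 12 stood beside 40.1% of all genes called in RBM5 OE against CTRL and 39.9% against RBM5 KO, and 2 of those called against CTRL (IL12A and EBI3) passed the filter through 1 group alone. Besides IL23A, CSF1, the ligand of CSF1R, was higher in RBM5 OE. It had 7, 67 and 48 counts in RBM5 KO, 308, 287 and 254 counts in RBM5 OE and 86, 78 and 18 counts in CTRL (log2 fold change in RBM5 OE 2.13, standard error 0.36, edgeR adjusted p = 0.000781). IL18 had 6.59, 7.43 and 8.14 CPM in RBM5 KO, 11.2, 12.7 and 13.5 CPM in RBM5 OE and 8.21, 8.23 and 9.11 CPM in CTRL (log2 fold change 0.55, standard error 0.12, edgeR adjusted p = 0.00323). Its receptor chains IL18R1 and IL18RAP had 7 counts each over all libraries. The list's median log2 fold change was 0.29 in RBM5 KO, 0.58 in RBM5 OE and 0.18 between RBM5 OE and RBM5 KO.

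Of 27 kinases, STAT proteins, adaptors and inhibitors below the receptors, 26 were expressed and tested. None passed in RBM5 KO (edgeR; 5 at an unadjusted p under 0.05). In RBM5 OE 8 rose and 4 fell, and 7 were higher and 5 lower in RBM5 OE than in RBM5 KO, or 12 of 26 in each, near the 40.1% and 39.9% of all genes. Among the rises were those of GAB2, a docking protein (log2 fold change 1.04, edgeR adjusted p = 1.43e-05), IRAK3, an inhibitor of IL-1 receptor signalling (0.73, edgeR adjusted p = 2.71e-05), and JAK3, the kinase that binds the common gamma chain (1.52, edgeR adjusted p = 0.00148). The 4 that fell, named after their values were seen, were STAT6 (log2 fold change −0.32), the phosphatase PTPN11 (−0.35), STAT5A (−0.25) and the adaptor MYD88 (−0.20). The list's median log2 fold change was −0.01 in RBM5 KO, 0.15 in RBM5 OE and 0.05 between RBM5 OE and RBM5 KO. In bulk RNA, a change in the mix of cells within a culture and a change in RNA per cell cannot be told apart.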

How the data were processed

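RNA was measured in 9 ribosomal RNA-depleted libraries of MOLM13 cells (RBM5 KO, RBM5 OE and CTRL, 3 replicates each, grouped by their labels). Per the labels, the authors used Trim Galore for trimming, STAR 2.7.1a for alignment, GATK 4.1.2.0 to mark duplicates and RSEM to quantify genes, on GRCh37; the paper's methods name Salmon. The expected count values deposited by the authors are RSEM estimates without scaling between libraries, counted without strand. The TPM values deposited by the authors are scaled by length and library.

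The tables' 92 spike-in entries (0 counts) were left out, and 47 pseudoautosomal Y entries, identical to their X entries, were added to them, so the 50 entries that fitted the symbol rule gave 47 genes. Counts were rounded and tested in R 4.3.3 with edgeR 4.0.16 (filterByExpr, TMM factors 0.967 to 1.02, quasi-likelihood test, Benjamini-Hochberg over all genes tested; called at an adjusted p under 0.05). Comparisons with CTRL used their 6 libraries, and RBM5 OE against RBM5 KO used all 9. Standard errors are the absolute log2 fold change over the square root of the test's F. Members with a mean of at least 1 TPM in a group, or called, were named with values, and up to 4 called genes of each accompanying list. The members and lists were chosen with earlier results of these data known. Alternatives were DESeq2 1.42.0, limma-voom and log2(TPM + 1) or log2(TPM + 0.1) with limma 3.58.1, RLE size factors, library totals alone, other filters, other libraries in the fit, the replicate number as a block, leaving libraries out, and, chosen after seeing the data, X and Y entries kept apart. The scripts were tested on simulated data. Coordinates are from GENCODE v44 mapped to GRCh37 and start windows from RefSeq on GRCh38.p14. Plots were made in Python 3.11.15 (matplotlib 3.10.9).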

Additional observations from a re-analysis of the deposited data

How the results depend on the processing

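The count of members called in RBM5 KO against CTRL was 0 and was the least settled. It was 2 with DESeq2 (5.63% of all genes), 2 with no low-count filter (2.67%) and 1 with all 9 libraries in 1 fit (5.99%). When single libraries were left out it was 0 to 4 (0.186% to 7.73% of all genes), with 4 without RBM5 KO replicate 1. Without both CTRL replicate 3 and RBM5 KO replicate 1 it was 5 (13.4% of all genes). In RBM5 OE against CTRL, 15 members were called, and 11 to 18 under the alternatives (12 to 17 when single libraries were left out). The share of all genes called ran from 25.9% to 44.3% under these alternatives. In RBM5 OE against RBM5 KO, 14 were called, and 11 to 17 under the alternatives, where 23.8% to 46.1% of all genes were. The replicate numbers did not pair the libraries (correlations of same-numbered deviations −0.24 to 0.10 for RBM5 KO with CTRL, −0.03 to 0.02 for RBM5 OE with CTRL and −0.05 to 0.09 for RBM5 OE with RBM5 KO), and with the replicate block 0, 16 and 13 members were called. Over 609 combinations of a named member, a comparison and an alternative, 548 kept their direction and side of the threshold, 49 lost the call, 12 gained it and 0 reversed. The combinations include IL23R, whose test carries no weight of its own. For RBM5 OE against CTRL, leaving out CTRL replicate 3 and leaving out both libraries are the same fit, so that alternative is counted again. The number of expressed members was 26 at 1 TPM, 30 at 0.5 TPM, 20 at 5 TPM and 29 at 1 CPM. The 20 at 5 TPM include IL6ST, whose mean of 10.6 TPM in RBM5 OE rests on replicate 1 at 24.5 TPM. Among all genes called in RBM5 KO, 32.4% were higher, against 43.5% with no low-count filter, 42.9% with DESeq2, 49.4% without RBM5 KO replicate 1 and 51.2% without both libraries. With 3 replicates a group, and counts below 50 per library for IL23R, IL17RC and IL12RB2 in RBM5 OE, small differences of low members could not be detected, and the cause of the changes with the setting was not tested.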
